A study of Mus musculus with 16 samples.

Results

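Genes of the sperm axoneme were followed in RNA from mouse testis that had been divided with J2, a monoclonal antibody to double-stranded RNA. The members are the genes whose symbol begins with Cfap, Dnah, Rsph, Tekt or Drc followed by a digit, which gave 62 of the 35920 genes in the table of normalized counts. They comprise 30 Cfap, 16 Dnah, 8 Rsph, 5 Tekt and 3 Drc genes, and the Dnah genes are described apart from the other 46. The 16 libraries form 6 groups of J2-bound RNA and of flow-through RNA (FT), the RNA that the antibody left unbound, which the labels describe as having had rRNA and dsRNA removed. Testis labelled Dicer knock-out (genotype Dcr-/-) at postnatal day 18 (P18) gave 3 J2 and 3 FT libraries, adult testis gave 2 and 2, and wild-type testis at P18 gave 3 and 3. The P18 mice, knock-out and wild type alike, were C57BL/6 x 129S4/SvJae, whereas the adult strain is labelled unknown, so age and strain cannot be told apart. No Cre driver and no target cell type is given in the labels for the knock-out. Separate animals are not stated for the replicates either, so the p-values measure the spread between these libraries, which may be technical.

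The axoneme is the microtubule core of the sperm flagellum and of motile cilia. Dynein heavy chains (Dnah genes) are the motors that slide neighbouring doublet microtubules past each other, and they sit in outer and inner arms. Radial spokes (Rsph genes) and the nexin-dynein regulatory complex (Drc genes) control that sliding, tektins (Tekt genes) are filament proteins inside the doublets, and Cfap genes encode a mixed set of proteins of cilia and flagella. In testis the flagellum is assembled in spermatids, and transcription of many of its genes begins in meiotic spermatocytes.

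The deposited values summed to 0.446 to 0.824 M per J2 library and 6.05 to 34.9 M per FT library (M, 1e+06). A value of 10 stood for about 19.4 to 86.3 reads in J2 but only about 1.19 to 4.99 reads in FT, so an FT value of 0 is the weaker statement. Spearman's rho between replicates was 0.377 to 0.611 over 9526 genes, which are not independent replicates. Dicer1 itself was at 3.39, 0 and 0 in knock-out J2 and 11.3, 0 and 8.64 in wild-type J2, and at 0, 3.68 and 8.33 in knock-out FT and 5.1, 12.4 and 0 in wild-type FT, which is too low to check the genotype. The testis label was met by spermatocyte markers in every library. Their summed level over 9 genes was 246 to 521 in knock-out J2, 374 to 753 in knock-out FT, 255 to 299 in adult J2, 244 to 325 in adult FT, 370 to 580 in wild-type J2 and 242 to 440 in wild-type FT. In bulk RNA of this kind, fewer cells of a type and less RNA per cell cannot be told apart.

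Between 29 and 50 of the 62 members were above 0 in a P18 library, and between 49 and 61 in an adult library. They numbered 46, 48 and 30 in the knock-out J2 libraries and 29, 44 and 41 in knock-out FT. They numbered 53 and 61 in adult J2, 49 and 55 in adult FT, 34, 44 and 45 in wild-type J2 and 38, 50 and 34 in wild-type FT. Depth differed too. The 61 and 55 came from the deepest J2 and FT libraries (about 4.54 and 5.87 M reads). Both counts of 34 came from the shallowest (about 1.23 and 0.985 M), and the 29 from a library of about 4.3 M. The part of depth in these counts was not tested. Cfap97d2 was listed at 0 throughout, and 8 members, Cfap97d2 among them, stayed under 10 in every library. The others of the 8 were Cfap299, Cfap73, Cfap77, Rsph4a, Dnah5, Dnah11 and the antisense RNA Dnah2os. Dnah5 and Dnah11, outer-arm heavy chains of airway cilia, and Rsph4a, a spoke-head protein of the same cilia, reached at most 5.24, 2.02 and 0.695. Cfap100, Cfap157, Cfap97d1, Dnah5 and Rsph4a were above 0 in at least 1 of the 4 adult libraries and listed at 0 in the 12 P18 libraries, and 0 members showed the opposite. Cfap97d1, needed to maintain the sperm axoneme in mice, was at 9.55 and 14.4 in adult J2 and at 8.19 and 6.97 in adult FT. These 5 are low, and an FT value under 10 rests on a few reads.

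**Figure D1:**
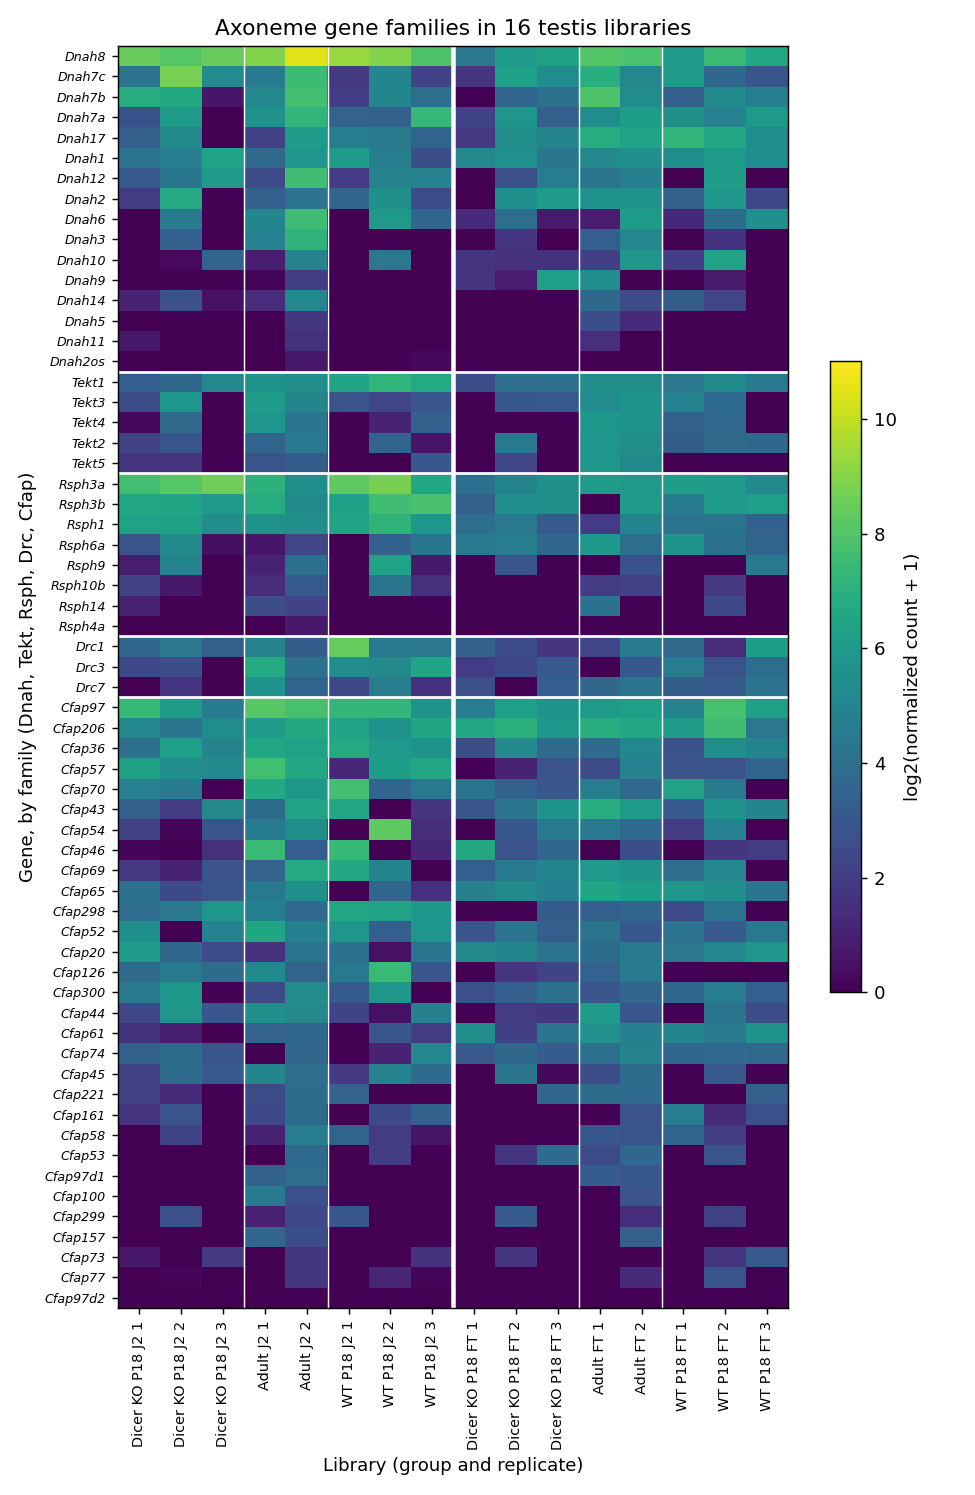
Levels of the 62 axoneme genes in the 16 libraries, as log2(normalized count + 1), with a row per gene grouped by family and a column per library grouped by fraction and condition. Dnah8 and Rsph3a are filled across all columns, while Cfap97d2 is empty in all of them and Cfap97d1 is filled only in the 4 adult columns.

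Dnah8, an outer-arm heavy chain of sperm (chromosome 17, 30626935 to 30875762, mm10), had the highest mean of the members in 5 of the 6 groups, on a scale that does not correct for transcript length. Its values were 351, 274 and 344 in knock-out J2, 485 and 1462 in adult J2, and 639, 476 and 242 in wild-type J2. In FT they were 19.97, 60.6 and 74.8 in the knock-out, 265 and 235 in adults, and 58.6, 181 and 94.0 in wild type. Every J2 library thus stood above every FT library of its own condition. Cfap206, which docks a radial spoke, led in knock-out FT instead, with 95.0, 133 and 58.1 against 64.7, 197 and 19.96 in wild-type FT. Only Cfap206, Cfap97, Dnah8 and Rsph3a had values of at least 10 in all 16 libraries.

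The comparison of J2 with FT asks which RNAs the antibody retained. In wild-type testis, 49 members had a value of at least 10 in 2 or more libraries and could be tested, and 1 rose and 0 fell (limma, adjusted p under 0.05, over 9526 genes). Over all genes tested, 0.525% rose and 0.378% fell by that rule. At an unadjusted p under 0.05, 6 members were higher and 2 lower, beside 6.8% and 7.11% of all genes. The J2 and FT libraries did not overlap for 9 members that were higher in J2 (18.4% of those tested, against 7.08% of all genes) and for 4 that were lower (8.16%, against 8.3%). Members that passed the filter may owe this to the fraction in which they are high, so these counts are descriptions. All differences here are relative to the authors' scaling, which puts the median gene at about the same level in J2 and in FT. The median log2 difference over the tested members was 0.03, beside -0.05 for all genes, and it ran from -0.40 to 0.46 when 1 library was left out.

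Cfap126, a protein inside the doublet microtubules of motile cilia (chromosome 1, 171113912 to 171126956), was the member that rose. It was at 20.6, 170 and 6.95 in wild-type J2 and listed at 0 in the 3 wild-type FT libraries, a log2(value + 1) difference of 4.95 (SE 1.17, limma adjusted p = 0.049). In the knock-out it was at 13.1, 22.6 and 14.0 in J2 and 0, 2.38 and 3.79 in FT, again without overlap (log2 difference 2.76, SE 1.17, limma adjusted p = 0.37). In adults the fractions overlapped, with 36.9 and 10.3 in J2 and 9.93 and 22.3 in FT. The wild-type call was kept in 2 of 12 alternative settings, with adjusted p between 0.00053 and 0.2. Leaving out a library ended it in 5 of 6 cases, and without wild-type J2 replicate 3 the adjusted p was 0.031.

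In knock-out testis 0 of 49 members rose and 0 fell after adjustment (limma), beside 0.168% and 0.189% of all genes. At an unadjusted p under 0.05, 6 were higher and 3 lower, beside 4.8% and 6.69% of all genes. In adult testis 0 of 49 rose and 0 fell (limma), beside 0.147% and 0.168%, and 4 were higher and 1 lower unadjusted, beside 4.01% and 2.63%. The fractions did not overlap for 9 members higher and 6 lower in the knock-out (background 6.95% and 11.1%) and for 13 higher and 8 lower in adults (background 18.4% and 17.3%). With 2 libraries against 2 in adults, such separation is common among all genes.

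Dnah8, Rsph1 and Cfap298 were higher in J2 without overlap in all 3 conditions, though none of the 9 differences passed the test. These 3 of 49 members stand beside 1.05% of all genes that met the same rule. For Dnah8 the log2 differences were 2.81 in the knock-out (SE 0.67, limma adjusted p = 0.089), 1.75 in adults (SE 0.82, adjusted p = 0.75) and 2.06 in wild type (SE 0.67, adjusted p = 0.15). Rsph1, a radial spoke-head protein, was at 82.2, 78.5 and 42.7 in knock-out J2 and 14.9, 20.2 and 7.65 in knock-out FT. Its adult values were 48.2 and 41.8 in J2 and 2.75 and 29.8 in FT, and its wild-type values 85.4, 141 and 54.3 in J2 and 17, 18.6 and 9.58 in FT. The J2 levels were several times the FT levels in both P18 groups, and the lone low FT library set much of the adult gap. Cfap298, a factor for dynein arm assembly (chromosome 16, 90925811 to 90934849), was at 14.2, 19.3 and 55.4 in knock-out J2 and 0, 0 and 8.07 in knock-out FT. In adults it was at 26.0 and 13.5 in J2 and 9.45 and 11.2 in FT, and in wild type at 94.9, 85.2 and 57.5 in J2 and 4.94, 17.6 and 0 in FT. Its log2 difference was 3.63 in the knock-out, 0.81 in adults and 4.03 in wild type (limma adjusted p = 0.22, 0.96 and 0.096).

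The spoke-stalk gene Rsph3a separated the fractions at P18. It was at 202, 273 and 397 in knock-out J2 and 15, 30.5 and 44.6 in knock-out FT (log2 difference 3.31, SE 0.72, limma adjusted p = 0.054). In wild type it was at 311, 422 and 97.1 in J2 and 70.5, 60.5 and 37.3 in FT (2.09, SE 0.72, adjusted p = 0.18). The adult fractions overlapped, at 131 and 43.1 in J2 and 66.0 and 59.4 in FT. Its near-identical copy Rsph3b was higher in J2 without overlap in the knock-out (97.1, 87.7 and 58.8, against 9.68, 40.6 and 44.1) and in wild type (76.7, 196 and 230, against 21.9, 60.1 and 72.9). How reads were divided between the copies could change both. Cfap57, which positions inner dynein arms, was at 77.8, 40.6 and 35.6 in knock-out J2 and 0, 1.16 and 6.03 in knock-out FT (4.32, SE 1.21, adjusted p = 0.15). In adults it was at 205 and 97.4 in J2 and 4.82 and 27.9 in FT, whereas the wild-type fractions overlapped because 1 J2 library was at 1.42.

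Cfap61 and Cfap65 stood lower in J2 without overlap in all 3 conditions, 2 of 49 members beside 1.14% of all genes, and neither passed the test. Cfap61, part of a complex at the base of the radial spokes, was at 2.07, 0.906 and 0 in knock-out J2 and 41.9, 3.21 and 18.0 in knock-out FT. It was at 10.1 and 11.9 in adult J2 and 46.9 and 26.4 in adult FT, and at 0, 6.6 and 2.85 in wild-type J2 and 32.4, 22.2 and 47.1 in wild-type FT. Cfap65, required for assembly of the sperm flagellum, was at 16.3, 4.62 and 6.2 in knock-out J2 and 26.4, 36.4 and 27.9 in knock-out FT. It was at 21.0 and 45.1 in adult J2 and 86.8 and 69.2 in adult FT, and at 0, 11.9 and 1.84 in wild-type J2 and 51.9, 42.1 and 17.9 in wild-type FT. Their wild-type log2 differences were -3.44 (SE 1.09, limma adjusted p = 0.14) for Cfap61 and -3.40 (SE 0.96, adjusted p = 0.094) for Cfap65. Every library was also rescaled to a common total that left out the mitochondrially encoded genes. This moved the median of all genes to 2.16 in the knock-out, 2.74 in adults and 1.87 in wild type. On that scale Cfap61 was at 0.03, 2.55 and -0.17 and Cfap65 at 1.83, 3.09 and -0.14 in the same order, all below the median gene except Cfap65 in adults. The signs of these 5 genes in the 3 conditions held under quantile normalization, which left the median of all genes at -0.071 to -0.015.

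**Figure D2:**
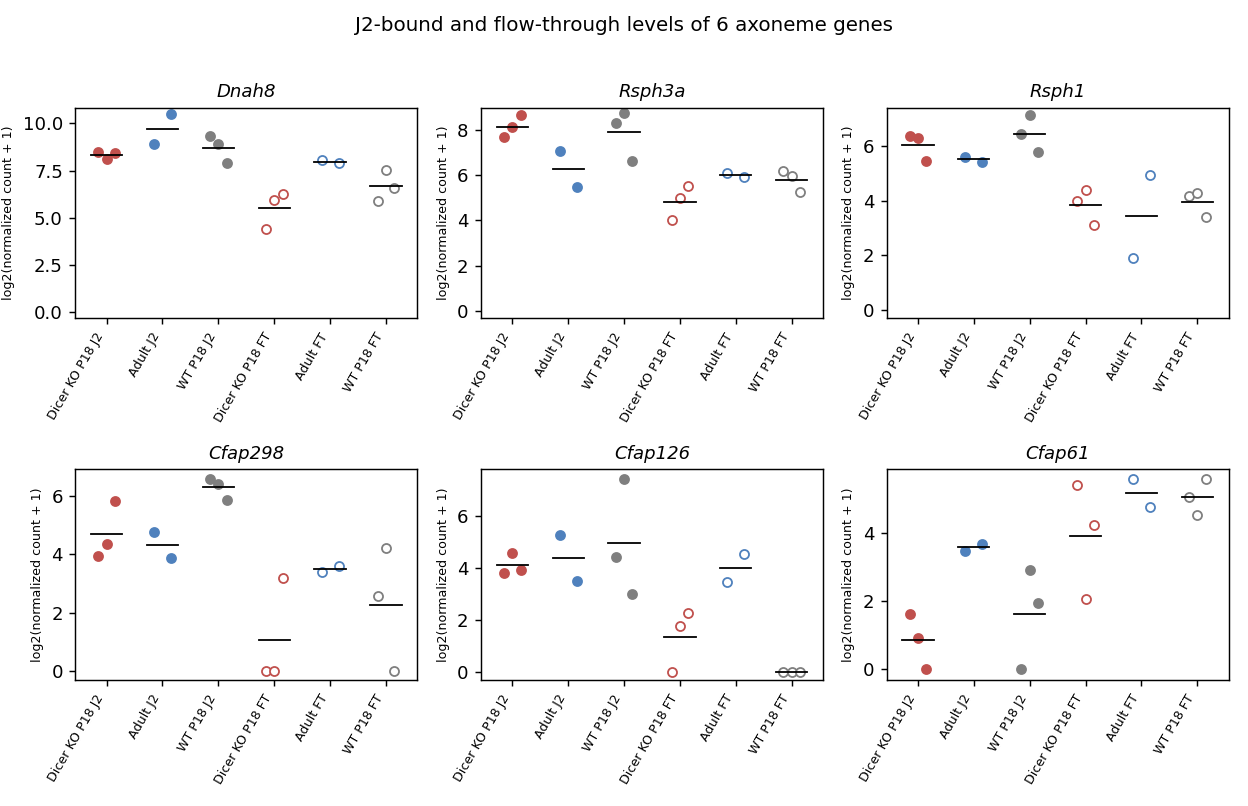
Normalized counts of 6 members, as log2(value + 1), with a point per library, filled for J2 and open for flow-through, and a bar at the mean of the log2 values. Dnah8, Rsph1 and Cfap298 have every filled point above the open points of the same condition, and Cfap61 has every filled point below them, while Cfap126 lies at 0 in the 3 wild-type flow-through libraries.

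The comparison of adult with P18 wild-type testis asks how the genes differ by age, within each fraction. Of 43 testable members, 1 rose and 0 fell in J2, beside 5.07% and 0.392% of all 6882 genes tested (limma, adjusted p under 0.05). In FT 1 of 43 rose and 0 fell, beside 3.08% and 0.154% of 7141 genes. At an unadjusted p under 0.05, 1 member was higher and 1 lower in J2 (background 10.7% and 3.37%), and 2 were higher and 0 lower in FT (background 8.39% and 3.32%). Both members called met the filter through the adult libraries alone, as did 329 of the 349 genes called higher in J2 (94.3%) and 212 of the 220 in FT (96.4%). Median log2 differences of the members were 1.01 in J2 and 0.72 in FT, beside 0.33 and 0.28 for all genes. The J2 median was 1.61 without adult J2 replicate 1 and 0.39 without adult J2 replicate 2. Adult libraries stood above wild-type P18 libraries without overlap for 10 members in J2 (23.3%, against 18.7% of all genes) and for 12 in FT (27.9%, against 16.6%). They stood below for 3 members in J2 (6.98%, against 8.83%) and for 0 in FT, against 8.57%.

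Later germ cells differed between these groups. Elongating spermatid markers summed over 8 genes to 1860 to 2470 in adult J2 and 0 to 1.67 in wild-type P18 J2, and to 2460 to 2790 in adult FT and 7.74 to 21.1 in wild-type P18 FT. Round spermatid markers summed to 261 to 265 in adult J2 and 3.56 to 38.0 in wild-type P18 J2, and to 138 to 340 in adult FT and 9.31 to 20.8 in wild-type P18 FT. Leydig markers overlapped in J2, at 132 to 173 in adults and 88.7 to 159 in wild type, as did macrophage markers, at 0 to 6.3 and 0 to 8.2. The summed markers of the remaining cell types were lower in adult J2 without overlap. Spermatocyte markers summed to 255 to 299 in adult J2 and 370 to 580 in wild-type J2, but the single genes were mixed. Tex101 was lower, at 90.7 and 24.8 in adult J2 and 327, 135 and 329 in wild-type J2. Sycp1 was higher, at 53.2 and 50.6 in adult J2 and 15.4, 30.6 and 8.98 in wild-type J2, and the other spermatocyte markers overlapped. Peritubular myoid markers summed to 9.77 to 11 in adult J2 and 73.3 to 149 in wild-type J2, red cell markers to 4.03 to 5.79 and 106 to 445, spermatogonial markers to 11.4 to 17.2 and 35.4 to 81.7, and Sertoli markers to 30.4 to 31.8 and 42.4 to 162. In FT, red cell markers were also lower, at 11.4 to 17 in adults and 111 to 194 in wild type. Sertoli markers summed higher, at 21.9 to 32 and 0 to 18.1, with few reads behind such values. Their members were mixed: Amh, Rhox5 and Sox9 were at 0 in adult FT, while Rhox5 reached 18.1 and Sox9 9.32 in wild-type FT. Peritubular, spermatogonial, spermatocyte, Leydig and macrophage markers overlapped in FT. The part of these shifts in the axoneme differences was not tested.

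Tekt5, a tektin of the sperm flagellum (chromosome 16, 10357952 to 10395455), was the member that passed in FT. It was at 53.7 and 37.2 in adult FT and listed at 0 in the 3 wild-type P18 FT libraries, a log2(value + 1) difference of 5.51 (SE 0.98, limma adjusted p = 0.011). In J2 it was low at both ages, at 6.15 and 8.59 in adults and 0, 0 and 6.92 in wild type. Among the 8 FT libraries Tekt5 reached 10 only in the 2 adult ones, so it entered the test through the group where it is high. With no filter on low values the difference did not pass (adjusted p = 0.12), and it passed in the other 7 of 8 alternatives. Without 1 of the 2 adult libraries, Tekt5 fell below the filter and could not be tested.

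All 5 tektins stood higher in adult FT than in wild-type P18 FT without overlap, and Tekt5 alone passed the test. The same separation held for 5 of 20 Cfap, 2 of 11 Dnah, 0 of 4 Rsph and 0 of 3 Drc genes, and for 16.6% of all genes. Wild-type FT replicate 3, at 0 for Tekt3 and Tekt4, had only about 0.985 M reads, and 1 read was worth about 8.43 there. Tekt4 was at 56.9 and 48.0 in adult FT and 9.57, 12.4 and 0 in wild-type FT (log2 difference 3.35, SE 1.35, limma adjusted p = 0.36). Tekt3 was at 39.1 and 50.7, against 28.4, 13.3 and 0, and Tekt2 at 53.6 and 41.7, against 8.43, 13.1 and 11.7. In J2, Tekt4 was at 53.9 and 19.0 in adults and 0, 1.14 and 9.22 in wild type, and Tekt3 at 65.7 and 31.0, against 6.17, 3.92 and 6.64. Tekt2 showed the same order in J2, with 10.6 and 21.1 in adults and 0, 10.5 and 0.555 in wild type. Tekt1 stood in opposite orders in the fractions, at 41.7 and 42.4 in adult FT and 19.5, 37.6 and 22.8 in wild-type FT, but at 49.5 and 44.2 in adult J2 and 85.3, 148 and 104 in wild-type J2. The difference between its fractions did not pass the test (age by fraction -1.91, SE 1.22, limma adjusted p = 0.95).

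**Figure D3:**
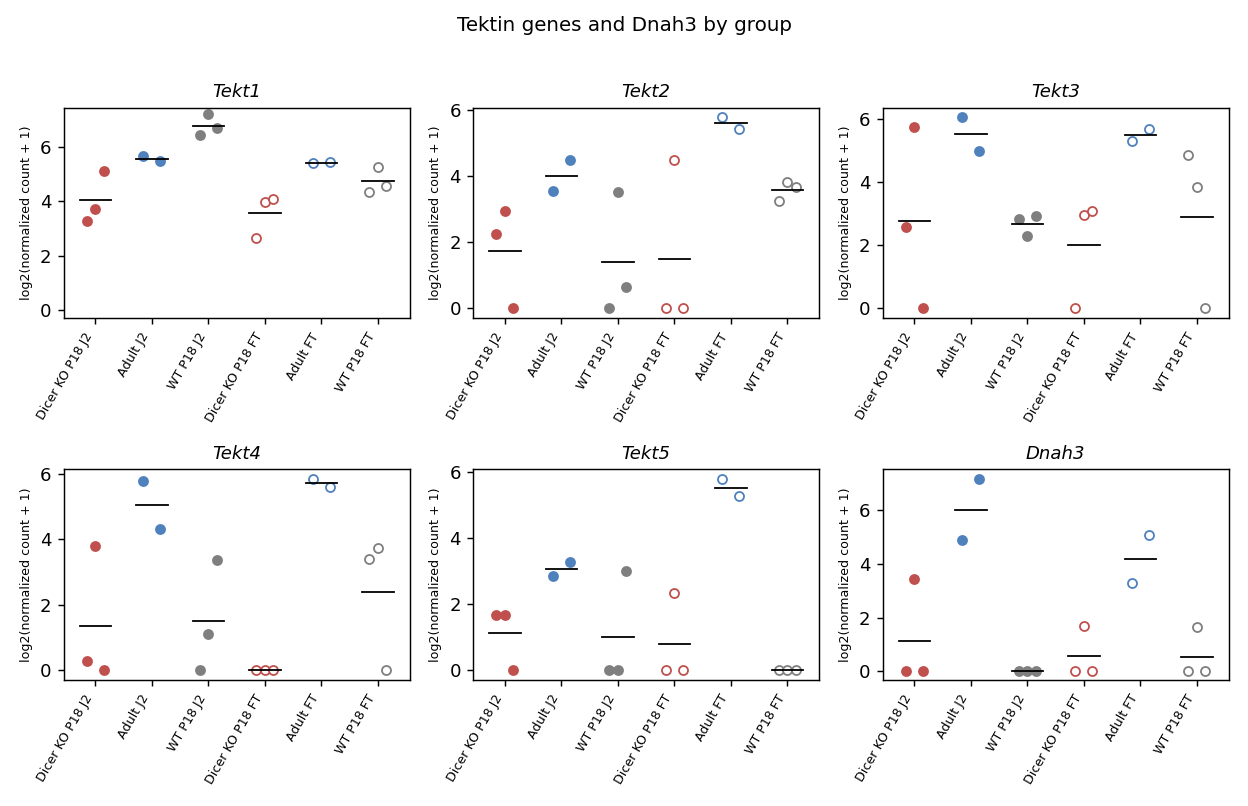
Normalized counts of Tekt1 to Tekt5 and Dnah3, as log2(value + 1), with a point per library, filled for J2 and open for flow-through, and a bar at the mean of the log2 values. The adult open points lie above the wild-type open points for each tektin, and Tekt1 is the tektin whose adult filled points lie below those of wild type.

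Dnah3, an inner-arm heavy chain (chromosome 7, 119921332 to 120095297), was the member that passed in J2. It was at 28.2 and 139 in adult J2 and listed at 0 in the 3 wild-type P18 J2 libraries, a log2(value + 1) difference of 6.00 (SE 1.29, limma adjusted p = 0.02). In FT it was at 8.77 and 32.7 in adults and 0, 2.1 and 0 in wild type, below the level needed for a test. Among the 8 J2 libraries Dnah3 reached 10 only in the 2 adult ones, so it too entered the test through the group where it is high. Of 8 alternatives for the J2 call 4 kept it. It was lost with no filter on low values (adjusted p = 0.095) and without each wild-type J2 library in turn (adjusted p = 0.065 to 0.075), and without an adult J2 library Dnah3 could not be tested.

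Other members leaned higher in adults without passing. In FT, Cfap69, needed for the sperm flagellum, was at 61.0 and 47.9 in adults and 14.9, 32.7 and 0 in wild type (2.76, SE 1.36, limma adjusted p = 0.49). Cfap221, a central-pair protein, was at 13.8 and 13.5 in adult FT and 0, 0 and 9.17 in wild-type FT. In J2, Cfap65 was at 21.0 and 45.1 in adults and 0, 11.9 and 1.84 in wild type (3.26, SE 1.49, adjusted p = 0.37). The members that stood lower in adult J2 were Cfap298 (-1.99, SE 0.88, adjusted p = 0.35), Tekt1 and Rsph1, whose values are given above. No member passed the age by fraction test (limma, 0 of 49, beside 0% of all genes in either direction). At an unadjusted p under 0.05, 0 were higher and 1 lower, beside 3.32% and 2.08% of all genes. That 1 was Cfap126, with -4.57 (SE 1.84, adjusted p = 0.83).

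The comparison of Dicer knock-out with wild type at P18 asks which RNAs depend on Dicer. In J2, 0 of 43 members rose and 0 fell after adjustment (limma), with 0 higher and 2 lower at an unadjusted p under 0.05. Over all 6882 genes, 0% were called in either direction, and 4.23% were higher and 2.17% lower unadjusted. The groups did not overlap for 0 members higher and 5 lower (11.6%, against 3.78% of all genes). The median log2 difference was -0.49 for the members and 0.13 for all genes. It was -0.86 without knock-out J2 replicate 2, -0.21 without knock-out replicate 3, -0.12 without wild-type J2 replicate 2 and -0.84 without wild-type replicate 3. In FT 0 of 43 rose and 0 fell (limma), beside 0% of all 7141 genes, and 1 was higher and 1 lower unadjusted, beside 4.65% and 1.46%. Without overlap, 2 stood higher and 2 lower (background 7.53% and 3.04%). The median in FT was -0.52, beside 0.33 for all genes. Leaving out 1 library gave -0.98 to -0.35, with -0.98 reached without knock-out FT replicate 3. The difference was positive for 12 of the 43 members in FT (27.9%, against 60.7% of all genes) and for 16 of 43 in J2 (37.2%, against 53.5%).

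The 5 members without overlap in J2 were Drc3, Tekt1, Drc1, Cfap298 and Cfap206. Drc3 was at 4.26, 4.99 and 0 in knock-out J2 and 42.4, 35.1 and 86.4 in wild-type J2 (log2 difference -4.03, SE 1.13, limma adjusted p = 0.68). Tekt1 was at 8.79, 12.2 and 34.1 in knock-out J2 and 85.3, 148 and 104 in wild-type J2 (-2.74, SE 0.73, adjusted p = 0.68). Each knock-out value of these genes lay below each wild-type value. Drc1 was at 11.4, 19.6 and 9.21 in knock-out J2 and 340, 20.7 and 19.7 in wild-type J2, so that its gap beyond the nearest libraries rests on 1 wild-type library. The remaining regulatory complex gene, Drc7, overlapped, with 0, 2.11 and 0 in the knock-out and 4.29, 23.4 and 2.07 in wild type (-2.33, SE 1.29, adjusted p = 0.85). In FT the 3 Drc genes had differences of -1.21, -1.37 and -1.52 for Drc1, Drc3 and Drc7, and their groups overlapped, Drc3 being at 2.83, 4.28 and 7.31 in the knock-out and 24.6, 6.25 and 14.8 in wild type.

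In FT, Cfap46, a central-pair protein, had 97.8, 6.12 and 11.9 in the knock-out and 0, 2.34 and 2.73 in wild type (3.17, SE 1.35, limma adjusted p = 0.79). In J2 the same gene had 0.148, 0 and 1.83 in the knock-out and 166, 0 and 1.4 in wild type, and the genotype by fraction difference was -5.49 (SE 2.38, adjusted p = 0.99), with single libraries of 97.8 and 166 behind it. Dnah9, an outer-arm chain, was at 2.1, 0.762 and 72.3 in knock-out FT and 0, 0.742 and 0 in wild-type FT. Tekt1 was lower in knock-out FT too, at 5.28, 14.9 and 15.8, against 19.5, 37.6 and 22.8 (-1.16, SE 0.67, adjusted p = 0.84). No member passed the genotype by fraction test (limma, 0 of 49, beside 0% of all genes), and 1 was higher and 1 lower unadjusted, beside 2.18% and 2.59%.

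Some markers of other testis cells also differed between the genotypes. Sertoli markers overlapped in J2, at 75.2 to 275 in the knock-out and 42.4 to 162 in wild type. In FT they summed to 62.7 to 77.5 in the knock-out and 0 to 18.1 in wild type, without overlap. Spermatogonial markers summed to 117 to 171 in knock-out J2 and 35.4 to 81.7 in wild-type J2, without overlap, and overlapped in FT at 29.3 to 276 and 36.6 to 127. Spermatocyte markers overlapped in both fractions. So did round spermatid markers, at 5.74 to 7.54 in knock-out J2 and 3.56 to 38.0 in wild-type J2, and at 11.7 to 22.2 and 9.31 to 20.8 in FT. Elongating spermatid markers summed to 0 in knock-out J2 and 0 to 1.67 in wild-type J2, and overlapped in FT at 6.34 to 21.7 and 7.74 to 21.1. The part of these differences in the axoneme values was not tested.

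**Figure D4:**
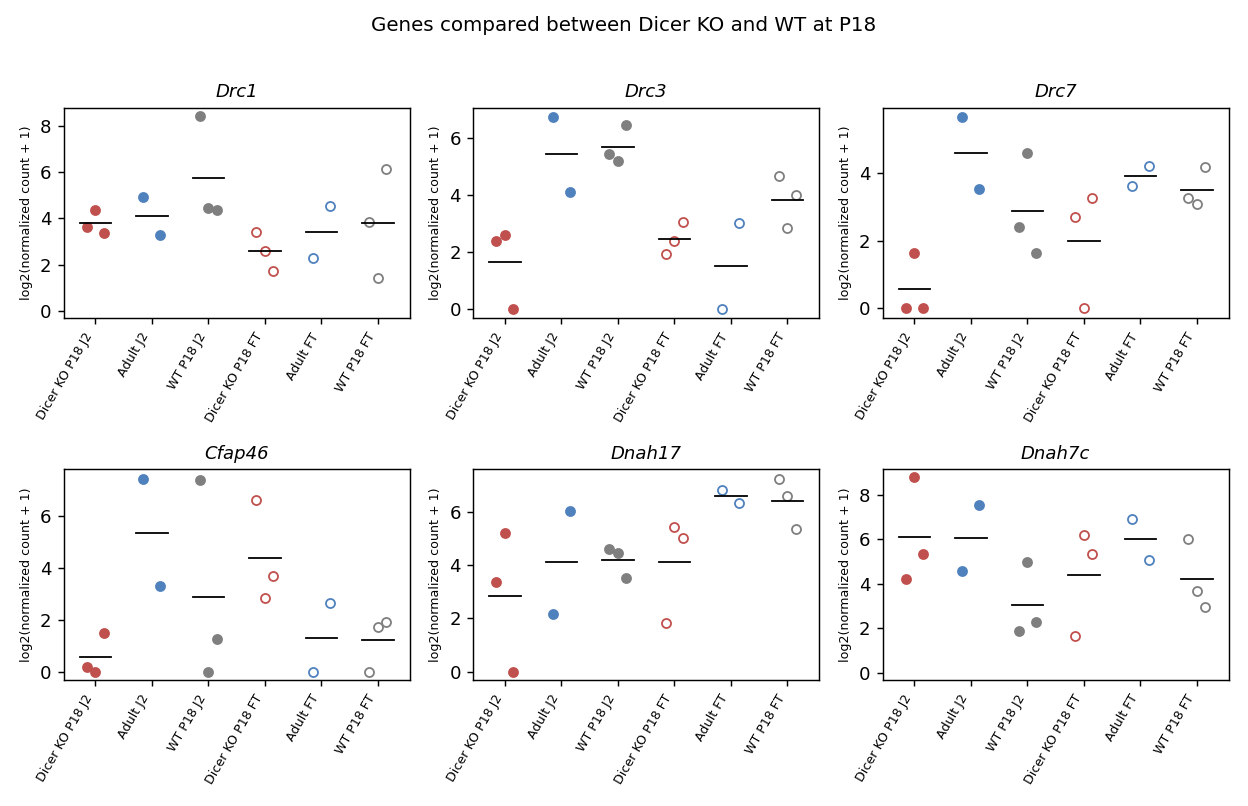
Normalized counts of Drc1, Drc3, Drc7, Cfap46, Dnah17 and Dnah7c, as log2(value + 1), with a point per library, filled for J2 and open for flow-through, and a bar at the mean of the log2 values. Drc1 and Drc3 have the filled knock-out points below the filled wild-type points, and Cfap46 has its open knock-out points above the open wild-type points.

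The long Dnah genes were summarised apart. Of the 16, 15 had coordinates, with gene spans of 65.5 to 382.1 kb and a median of 238.3 kb, and 45 of the other members spanned 3.6 to 472.9 kb with a median of 33.9 kb. Gene span is not transcript length. Between J2 and FT the median log2 difference was 0.07 for 13 Dnah genes in the knock-out, 0.07 in adults and -0.71 in wild type, and for 36 other members 0.29, 0.52 and 0.63. Leaving out 1 library gave Dnah medians of 0.13 to 0.63 in the knock-out, -1.53 to 1.49 in adults and -1.23 to -0.25 in wild type, and -0.04 to 1.10, 0.03 to 0.49 and 0.09 to 0.88 for the others. Dnah8 was the exception, as the only Dnah gene that stood higher in J2 without overlap in all 3 conditions. Dnah17, the other outer-arm chain of sperm, stood lower in J2 in adults (3.52 and 63.7, against 112 and 79.8) and in wild type (23.4, 20.8 and 10.5, against 148, 94.0 and 40.0), and the fractions overlapped in the knock-out (9.16, 35.9 and 0, against 2.55, 42.4 and 31.6). Rescaling to a common total moved the wild-type difference of Dnah17 from -2.19 to 1.6, which still lay below the median of all genes on that scale (1.87). Its FT level in the knock-out lay below every wild-type library in 2 of 3 libraries (log2 difference -2.29, SE 0.92, limma adjusted p = 0.79).

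Among the inner-arm chains the libraries of a group varied widely. Dnah7b and Dnah7c lie near each other on chromosome 1, and Dnah7a lies further along it. The 3 are close copies, so the division of reads among them could change each value. Dnah7c was at 17.4, 440 and 39.2 in knock-out J2, 22.8 and 188 in adult J2 and 2.68, 31.0 and 3.82 in wild-type J2. Dnah7b was at 114, 102 and 0.574 in knock-out J2, 34.1 and 207 in adult J2 and 3.01, 32.3 and 14.8 in wild-type J2. Dnah7a was at 5.76, 65.4 and 0 in knock-out J2, 49.96 and 148 in adult J2 and 10.3, 9.62 and 158 in wild-type J2. In FT the 3 copies were at 0 to 72.4 in the knock-out, 32.9 to 242 in adults and 6.69 to 63.6 in wild type. Adult J2 replicate 2 held most of the adult J2 signal of Dnah6 (32.2 and 190), Dnah12 (4.87 and 195), Dnah10 (0.889 and 29.2) and Dnah14 (1.63 and 34.6). Dnah1 was above 5 in all libraries, with 17.4, 24.8 and 79.1 in knock-out J2, 12.8 and 54.7 in adult J2 and 64.4, 24.2 and 5.34 in wild-type J2. Dnah2 was at 2.82, 104 and 0 in knock-out J2, 9.44 and 17.1 in adult J2 and 11.3, 45.2 and 4.63 in wild-type J2. Summed over the 16 Dnah genes, the level was 527, 1101 and 536 in knock-out J2, 686 and 2737 in adult J2 and 757, 748 and 478 in wild-type J2. The corresponding FT sums were 67.5, 356 and 357 in the knock-out, 953 and 730 in adults and 387, 633 and 318 in wild type.

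Across the tested members, the Spearman correlation of gene span with the J2 against FT difference was -0.19 in the knock-out, -0.06 in adults and -0.19 in wild type (49 genes). With the adult against wild-type difference it was 0.38 in J2 and 0.21 in FT, and with the knock-out against wild-type difference 0.05 and 0.11 (43 genes). Without the Dnah genes, the J2 against FT correlations were -0.34 in the knock-out, 0.02 in adults and -0.07 in wild type (36 genes). Those with the adult against wild-type difference were 0.26 in J2 and 0.13 in FT, and with the knock-out difference -0.11 and 0.3 (32 genes). All are descriptions across genes that share the same libraries.

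**Figure D5:**
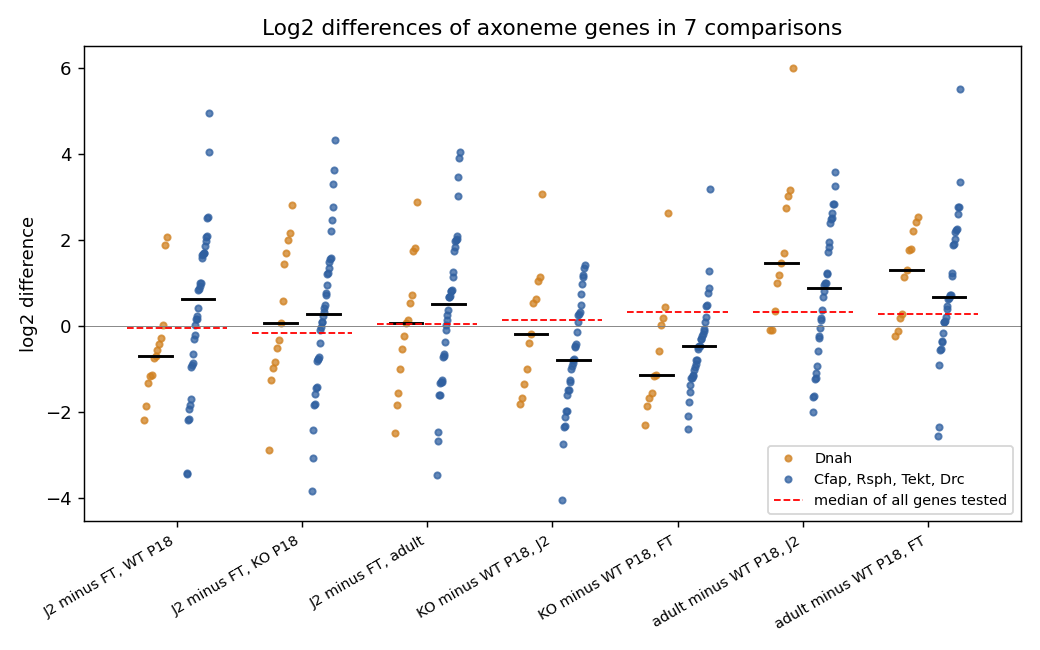
Log2 differences of the tested members in each comparison, with Dnah genes set apart from the Cfap, Rsph, Tekt and Drc genes. The points spread on both sides of 0 in each comparison, and the members run from -3.44 to 4.95 for J2 against flow-through in wild type.

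Other genes of the pathway were read from 3 lists. Of 56 further axoneme genes, 42 were testable in adult J2 against wild-type P18 J2 and 3 rose and 0 fell, and 40 were testable in FT, where 1 rose and 0 fell (limma). The calls were 7.14% of those tested in J2, beside 5.07% of all genes, and 2.5% in FT, beside 3.08%. The median differences were 0.79 in J2 and 1.12 in FT, beside 0.33 and 0.28 for all genes. Fbxl13, a subunit of the nexin-dynein regulatory complex, was at 63.6 and 111 in adult J2 and listed at 0 in the 3 wild-type J2 libraries (log2(value + 1) difference 6.41, SE 0.70, limma adjusted p = 0.00025). Ropn1, a fibrous sheath protein, was at 33.2 and 40.6 in adult J2 and listed at 0 in wild-type J2 (5.24, SE 0.52, adjusted p = 0.00021). Spaca9, a protein inside the doublets, was at 57.5 and 15.4 in adult J2 and 0.409, 0 and 0.498 in wild-type J2 (4.59, SE 0.71, adjusted p = 0.0022). Spag6, a central-pair protein, was at 80.8 and 31.2 in adult FT and 0, 3.03 and 0 in wild-type FT (5.01, SE 0.98, adjusted p = 0.018). Each of these 4 genes reached 10 only in the 2 adult libraries of its fraction. With no filter on low values none passed (adjusted p = 0.069 for Fbxl13, 0.094 for Ropn1, 0.095 for Spaca9 and 0.12 for Spag6), and Spag6 also missed without wild-type FT replicate 1 (0.08) or replicate 3 (0.083). None could be tested without an adult library of its fraction, and these alternatives were chosen after the values of the 4 genes were seen. In J2 against FT and in knock-out against wild type, 0 of the tested genes of these lists passed (limma). Of 17 intraflagellar transport genes, which carry the parts into a growing cilium, 15 were tested in each age comparison and 0 passed, with medians of 0.65 in J2 and 0.70 in FT. The third list held 9 transcription factors of ciliary and germ-cell genes: Foxj1, Rfx1, Rfx2, Rfx3, Rfx4, Sox5, Tcfl5, Mybl1 and Crem. Of the 9, 7 could be tested in J2 and 6 in FT, and 0 passed in either. Adult values stood above wild-type P18 values without overlap for 3 of 7 in J2 and 5 of 6 in FT. The same held for 18.7% and 16.6% of all genes tested. The medians were 1.31 in J2 and 1.73 in FT, beside 0.33 and 0.28 for all genes. Foxj1, a master regulator of motile cilia, which was too low to be tested, was at 7.94 and 5.11 in adult J2 and 8.35 and 28.9 in adult FT, and listed at 0 in the 6 wild-type P18 libraries.

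Promoters were read for the letters bound by RFX factors, transcriptional activators of ciliary genes, because the members share a ciliary role. The symbols used to choose the members name that role, so a higher share than among all genes is not an independent result. RefSeq windows of GRCm38.p6, from 250 bases before to 50 after a start, were found for 50 members. One arm of the X-box, GTTGCC on either strand, was in a window of 19 of the 50 members (38.0%) and of 14.1% of 27025 genes. Among the 19 are the close copies Dnah7a, Dnah7b and Dnah7c, each counted. The spaced form, GTNNCC and GGNNAC with any 2 bases between them, which can overlap the first motif, was in 6 of 50 (12%) and 2.16% of genes. The forkhead letters TGTTTAC were in 4 of 50 (8.0%) and 4.05%, and the CRE arm TGACGT in 2 of 50 (4.0%) and 8.37%. A match is a description of letters and not a site, and the windows carry no value from these libraries. The windows below belong to Cfap298 and Cfap126, whose J2 and FT values differed most in wild type, and to 4 of the 5 tektins that stood higher in adult FT. The window of Tekt3, not printed, held neither X-box form, and Tekt5 is printed as an example without them. Capitals mark the X-box letters of either form, and each is given 5' to 3' on the strand of its gene.
Cfap298, chr16:90934800-90935099, minus strand: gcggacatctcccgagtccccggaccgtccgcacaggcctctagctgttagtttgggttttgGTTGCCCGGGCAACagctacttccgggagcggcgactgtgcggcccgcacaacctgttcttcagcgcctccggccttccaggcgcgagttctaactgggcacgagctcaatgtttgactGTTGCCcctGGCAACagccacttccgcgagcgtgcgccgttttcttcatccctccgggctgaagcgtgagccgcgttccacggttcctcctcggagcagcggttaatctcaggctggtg
Cfap126, chr1:171122795-171123094, plus strand, 1 of 3 annotated starts: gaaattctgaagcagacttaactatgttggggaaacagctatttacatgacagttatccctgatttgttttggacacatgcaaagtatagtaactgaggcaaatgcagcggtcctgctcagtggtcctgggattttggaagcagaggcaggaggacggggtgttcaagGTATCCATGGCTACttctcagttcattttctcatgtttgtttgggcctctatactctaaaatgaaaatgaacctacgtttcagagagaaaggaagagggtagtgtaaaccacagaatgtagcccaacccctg
Tekt1, chr11:72361833-72362132, minus strand, 1 of 2 starts: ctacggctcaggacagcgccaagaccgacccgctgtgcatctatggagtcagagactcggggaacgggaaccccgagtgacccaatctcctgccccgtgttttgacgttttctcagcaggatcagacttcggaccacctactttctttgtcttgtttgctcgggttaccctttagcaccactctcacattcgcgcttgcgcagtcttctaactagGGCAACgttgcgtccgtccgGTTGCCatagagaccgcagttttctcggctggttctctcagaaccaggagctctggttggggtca
Tekt2, chr4:126325597-126325896, minus strand, 1 of 3 starts: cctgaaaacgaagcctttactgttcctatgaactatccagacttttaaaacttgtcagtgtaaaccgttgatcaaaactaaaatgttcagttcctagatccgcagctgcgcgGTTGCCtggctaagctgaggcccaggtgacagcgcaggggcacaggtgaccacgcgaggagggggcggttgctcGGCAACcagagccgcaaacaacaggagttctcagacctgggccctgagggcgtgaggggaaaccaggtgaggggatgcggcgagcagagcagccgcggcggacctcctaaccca
Tekt4, chr17:25471340-25471639, plus strand: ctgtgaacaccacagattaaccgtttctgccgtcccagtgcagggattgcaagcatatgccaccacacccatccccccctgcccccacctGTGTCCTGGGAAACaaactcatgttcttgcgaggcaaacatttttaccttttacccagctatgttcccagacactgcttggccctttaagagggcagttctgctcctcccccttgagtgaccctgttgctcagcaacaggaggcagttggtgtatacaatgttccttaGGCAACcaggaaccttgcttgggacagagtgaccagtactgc
Tekt5, chr16:10395406-10395705, minus strand: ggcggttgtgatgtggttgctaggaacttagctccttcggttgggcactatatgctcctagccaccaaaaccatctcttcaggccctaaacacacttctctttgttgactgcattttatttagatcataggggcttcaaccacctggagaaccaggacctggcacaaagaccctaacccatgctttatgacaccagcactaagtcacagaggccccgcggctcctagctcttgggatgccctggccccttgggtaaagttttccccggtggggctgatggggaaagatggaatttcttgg

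Cfap298 held both forms, and its spaced match began at -188 from the start. The match of Cfap126 began at -82 in the third of its windows, and the other windows held none. Tekt1 and Tekt2 each held 2 arms, on opposite strands, and Tekt4 held both forms. Tekt5 held neither form in its window, and no window was found for Dnah3.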

How the data were processed

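Total RNA of mouse testis was divided with the J2 antibody, and the bound and flow-through RNA were sequenced from strand-specific NuGEN Ovation SoLo libraries, per the labels' protocols. The deposited values are a signal on the authors' normalized count scale, with 1 value per gene and library. The submitters' processing notes name FastQC, Trimmomatic, Salmon, DESeq2 and the build mm10, with versions and settings not given in the sources used here. Of 35920 genes, 35446 matched a symbol and 474 did not, and 60 of the 62 members matched the RefSeq annotation of GRCm38.p6.

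The test was limma 3.58.1 (R 4.3.3) on log2(value + 1) (empirical Bayes with a mean trend, two-sided, Benjamini-Hochberg adjustment over all genes tested, threshold 0.05), on genes with a value of at least 10 in 2 or more fitted libraries. Log2 differences understate the change of low genes. J2 against flow-through and the interactions were fitted over 16 libraries, and the other comparisons within a fraction over 8. Alternatives changed the pseudocount, filter, scaling, libraries and replicate block. Named genes were those called in any comparison, the 5 with the largest change in each, the measured Dnah genes and the 5 highest per group, and further genes named for separation were chosen after their values were seen. The members and lists were chosen with earlier results of these data known. The scripts were tested on simulated data.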

Additional observations from a re-analysis of the deposited data

How the results depend on the processing

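In J2 against flow-through for wild type, the 1 member called became 0 with a pseudocount of 5, with no filter, with quantile normalization, with the compared groups alone and with the replicate block, and 17 after rescaling to a common total. For the knock-out the 0 called became 1 with a pseudocount of 5 or quantile normalization, 2 with a filter at 50 or the compared groups alone, and 18 after rescaling, and for adults 28 after rescaling. Rescaling moved the members' median log2 difference to 2.37 in the knock-out, 4.16 in adults and 2.49 in wild type, while the median of all genes moved from -0.15 to 2.16, 0.05 to 2.74 and -0.05 to 1.87. It also turned Dnah1 to 2.58 in wild type (limma adjusted p = 0.049) and 3.69 in adults (0.02), and Cfap206 to 2.43 in the knock-out (0.031) and 4.09 in adults (0.0052). The common total left out the mitochondrially encoded genes. Over all genes, those included, the 10 highest features held 43.61% to 67.51% of a J2 library and 95.75% to 98.83% of a flow-through library. Their share of the total used for rescaling was not computed. Adult against wild type gave 0 calls in J2 and 0 in flow-through with no filter or a filter at 50. With no filter, Dnah3 and Tekt5 were tested and did not pass, whereas a filter at 50 left both out of the test. Rescaling moved the flow-through median to 0.054 and the age by fraction median to 1.24. Leaving out 1 library gave 0 to 1 calls for J2 against flow-through in wild type and in adults, 0 to 1 for adult against wild type in flow-through and 0 in J2, and age by fraction medians of -0.48 to 0.54. Of 3930 single-gene alternatives 3857 kept their call or lack of one, 54 gained a call (46 after rescaling) and 15 lost one. The other 4 changed sign with a call in either setting. A change of sign without a call was counted as kept. In J2 against flow-through, rescaling changed the sign of 18 of 49 members in the knock-out, 20 in adults and 18 in wild type. Bound and flow-through libraries that share a code correlated in their deviations by -0.0264 to 0.0306 over 8 pairs, and 5 of 8 J2 libraries correlated best with their own code, so the codes were not used as pairs. With the replicate block 0 members were called in wild type. Few reads behind low flow-through values limit what an absence there can show.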
